A study of Mus musculus with 2 samples.

Results

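The genes Ring1, Rnf2, Bmi1, Cbx2, Cbx7, Cbx8 and Phc2 encode subunits of Polycomb repressive complex PRC1, and the open chromatin around them was examined in ATAC-seq peak lists of mouse enteroids. These 7 of the 22380 annotated protein-coding genes were taken for their place in the complex. No value in the lists served as a criterion, but earlier results of these data were known. A peak that reached within 1 kb of any annotated start site of a gene was counted as a promoter peak of that gene. Any other peak in the gene body or in the 10 kb on each side was counted as distal. The 7 genes held 10 promoter peaks and 28 distal peaks of the 90445 peaks in the control list, and 9 promoter peaks and 20 distal peaks of the 71282 peaks in the Taf4-inactivated list.

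PRC1 is a chromatin-bound ubiquitin ligase that places monoubiquitin on histone H2A and helps to keep developmental genes silent. It acts beside PRC2, which methylates histone H3, and the chromobox (CBX) subunits of canonical PRC1 bind that methyl mark. In the intestinal epithelium Polycomb activity is known for its part in stem cell maintenance and in the choice between stem cell and differentiated states.

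ATAC-seq marks open chromatin by letting a transposase insert sequencing adapters into accessible DNA. Enteroids, which are three-dimensional epithelial cultures, were grown from ileal crypts of mice aged 4 months on a mixed C57Bl6/129sv background. Control enteroids (labelled WT) were Taf4 lox/lox without Cre, and Taf4-inactivated enteroids (labelled KO) were Taf4 lox/lox::VilCreERT2, in which the epithelial villin promoter drives a Cre recombinase that 4-hydroxytamoxifen (4-OHT) activates. Both received 1 µM 4-OHT for 3 days, so both groups carried floxed Taf4 and the drug, while Cre was present in 1 group only. Effects of Cre activity and of Taf4 loss therefore cannot be told apart. The comparison asks how accessibility differed early after the loss of Taf4, part of TFIID, a general factor of transcription start. There was 1 library per genotype, so every difference given here is a difference between 2 libraries, with no test and no replicate check.

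The background level solved from the fold enrichment and p of the peaks placed the depth of the Taf4-inactivated library at 60.5% of that of the control library, and the length of a peak list moves with depth. Start site peaks were called at 6 of 6 epithelial marker genes in both lists and at 0 of 4 blood cell markers in either. Of 5 mesenchymal markers 3 had one in both lists, and of 3 endothelial markers 2 had one in control and 1 after inactivation, and the part of such cells in the results was not tested. The promoters of these markers also differed in their percentile of fold within the list, inactivated minus control, by -41.0 points at Pdgfra, -22.7 at Col1a2 and 7.36 at Col1a1 in mesenchyme and by -57.1 at Kdr in endothelium, while the epithelial markers ran from -18.9 to 2.84 points with a median of -7.94. Taf4a, the targeted gene, kept a promoter peak, at percentile 74.7 of fold in control and 58.7 after inactivation, and its paralogue Taf4b ranked 99.0 and 99.5. A promoter peak does not check the deletion.

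All 7 genes had a promoter peak in both lists, as did 62.7% of all protein-coding genes. Their 35 annotated start sites formed 15 groups separated by more than 1 kb, of which 11 lay within 1 kb of a control peak and 10 within 1 kb of a peak called after inactivation. The other 4 groups had no peak in either list and were all alternative starts, in Bmi1, Cbx7, Cbx8 and Phc2. Of the 10 control promoter peaks 9 overlapped a peak of the other list, and all 9 of the Taf4-inactivated ones did. The matching share over the promoter peaks of all protein-coding genes was not computed. Over the whole lists, distal peaks included, 52.7% of control and 39.8% of Taf4-inactivated peaks overlapped no peak of the other list.

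Fold enrichment is measured against the background of the same library, so the folds of both lists are not on a common scale. The strongest promoter peak of each gene was therefore ranked by the percentile of its fold within its own list, and the rank difference is the Taf4-inactivated percentile minus the control percentile. Cbx7 and Ring1 ranked lower after inactivation by more than 20 points, 2 of the 7 genes, where 12.3% of the 14022 protein-coding genes with a promoter peak in both lists did so. None of the 7 ranked higher by 20 points or more, where 7.84% of those genes did. Except at Ring1, the control percentile was 80.1 or more, which left no room for such a rise. The difference was below 0 in 5 genes and above 0 in 2, Cbx2 and Cbx8, and its median was -6.27 points. Over the protein-coding genes the median was -2.77 points, with quartiles of -10.6 and 2.35, and 65.9% lay below 0. With 7 genes these counts are small, and the differences among the members ran from -37.8 to 2.12 points. Ranked by peak width in place of fold, the median was 3.54 points and none of the 7 was lower by 20 points or more. Ranked by solved coverage, a choice made after the data had been seen, likewise none was. Fold is an average over a peak, so it is not independent of where the borders of the peak are called. Ring1 and Cbx7 were the members whose peaks were most widened after inactivation, by 423 and 367 bp. The other members ran from -339 to 14 bp. The part of width in the rank differences was not tested.

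**Figure D1:**
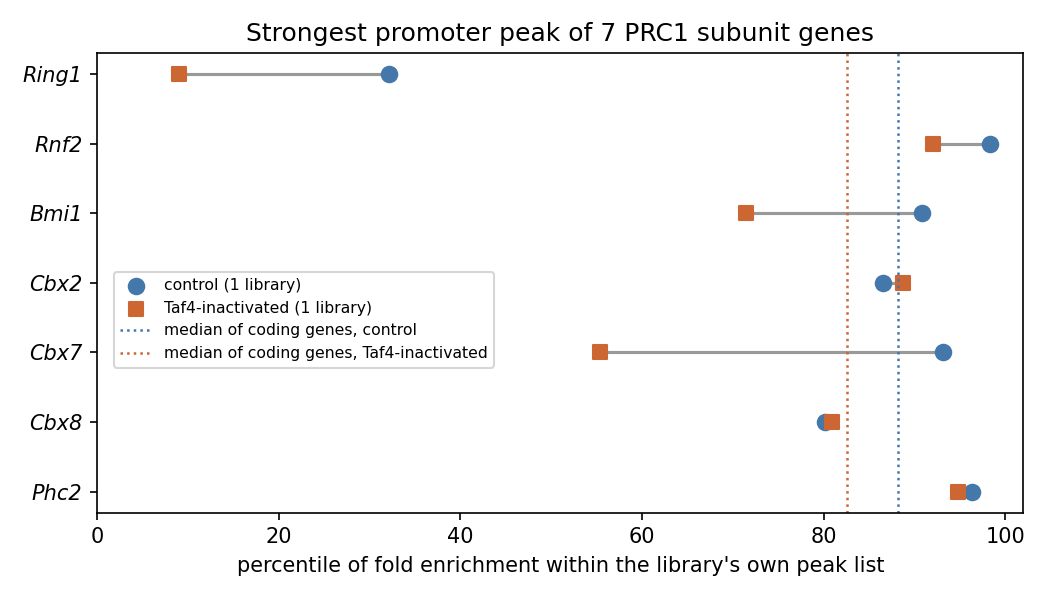
Percentile of fold enrichment (x axis) of the strongest promoter peak of each of the 7 genes (y axis) in the control list (blue circles) and the Taf4-inactivated list (orange squares), each from 1 library, with grey lines joining both values of a gene and dotted lines at the medians of the protein-coding genes with a promoter peak in both lists. Rnf2, Phc2, Cbx2 and Cbx8 sit above percentile 80 in both lists, Cbx7 moves from 93.2 to 55.4, and Ring1 is the lowest in both.

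The sequence just upstream of the main start site is shown for the pair of genes whose promoters ranked lower by over 20 points, Cbx7 and Ring1, and for the pair that ranked higher, Cbx2 and Cbx8. Each stretch is the 150 bases before the start site, read 5′ to 3′ in the direction of transcription from the NCBIM37 (mm9) genome, and lies outside annotated exons. Capitals mark matches on either strand to the Sp/KLF box GGGCGG, the NF-Y box CCAAT, the NRF1 letters TGCGCA and the E-box letters CACGTG. A match of the first on the other strand reads CCGCCC.
Cbx7, chr15:79763083-79763232, minus strand: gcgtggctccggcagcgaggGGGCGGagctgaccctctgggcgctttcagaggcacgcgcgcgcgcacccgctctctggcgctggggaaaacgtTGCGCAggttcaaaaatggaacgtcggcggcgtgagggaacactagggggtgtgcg
Ring1, chr17:34161626-34161775, minus strand: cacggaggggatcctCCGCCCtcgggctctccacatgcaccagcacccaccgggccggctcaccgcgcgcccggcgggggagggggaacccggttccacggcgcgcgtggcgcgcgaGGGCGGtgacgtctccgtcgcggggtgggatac
Cbx2, chr11:118884126-118884275, plus strand: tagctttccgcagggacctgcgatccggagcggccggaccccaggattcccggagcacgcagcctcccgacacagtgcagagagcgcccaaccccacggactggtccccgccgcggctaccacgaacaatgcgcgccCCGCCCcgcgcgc
Cbx8, chr11:118902284-118902433, minus strand: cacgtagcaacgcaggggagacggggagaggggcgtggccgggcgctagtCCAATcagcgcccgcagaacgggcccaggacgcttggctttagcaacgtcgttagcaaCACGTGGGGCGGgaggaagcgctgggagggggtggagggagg

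These promoters are rich in G, C and CpG, as is usual for CpG island promoters. In the 250 bases upstream, GC content ran from 64.0% in Cbx7 to 75.6% in Rnf2, where the median of the 14022 protein-coding promoters was 60%. CpG dinucleotides numbered from 15 in Phc2 to 31 in Rnf2, against a median of 15. GGGCGG, the box read by Sp and KLF factors, was present in 7 of 7 and in 58.9% of all promoters of that length. Bmi1 held 6 copies, some of them overlapping. CCAAT, the box of NF-Y, was present in Cbx7, Cbx8 and Phc2 and in 34.2% of all promoters. CACGTG, an E-box, was present in Bmi1, Cbx8 and Phc2 and in 8.59% of all promoters, and in Cbx8 it ran directly into a GGGCGG box. TGCGCA, part of the NRF1 site, was present in Cbx7 only among the 7 and in 11% of all promoters. TATAAA, the TATA box, was not in any of the 7 windows and was in 5.71% of all promoters. The ETS letters CCGGAAG (12% of all promoters) and the YY1 letters AAGATGG (3.95%) were also not in these windows.

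The catalytic subunits are the RING finger ligases Ring1 and Rnf2, which encode RING1A and RING1B. Rnf2 had the highest ranked promoter of the 7 in control, at chr1:153347235-153348501, with a fold of 3.34 (percentile 98.4). In the Taf4-inactivated list the peak was chr1:153347232-153348503 with a fold of 3.85 (percentile 92.1), a difference of -6.27 points. Its width was 1267 bp in control and 1272 bp after inactivation, so the borders were nearly the same in both lists. This was the only peak of Rnf2 in either list: no distal peak was called in its window of 51418 bp, of which peaks covered 2.46% and 2.47%.

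Ring1 was the lowest ranked of the 7 by fold in both lists. Its promoter peak was chr17:34161444-34161869 in control, with a fold of 1.95 (percentile 32.1), and chr17:34161263-34162111 after inactivation, with a fold of 2.08 (percentile 8.97), a difference of -23.1 points. The control peak lay wholly inside the Taf4-inactivated one, which was wider, at 849 bp against 426 bp. In both lists the peak also lay within 1 kb of the start of the microRNA gene Mir219-1. By -log10 p the peak stood much higher in its lists, at percentile 84.3 in control and 65.6 after inactivation, where coverage counts as well as fold.

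That local background was solved from fold and p and expressed as a multiple of the background floor of the library, which scales each library by its own depth. At the Ring1 promoter it was 2.64 times the floor in control and 3.33 times after inactivation, above that of 97.5% and 97.7% of the protein-coding genes with a promoter peak in both lists. The coverage at the peak was 5.21 and 7.06 times the floor, at percentiles 88.4 and 66.8 of the same genes. The Ring1 promoter was thus low in fold but not in coverage. At Rnf2 the relation was the reverse, with coverage of 3.93 and 6.15 times the floor over a background of 1.12 and 1.496.

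**Figure D2:**
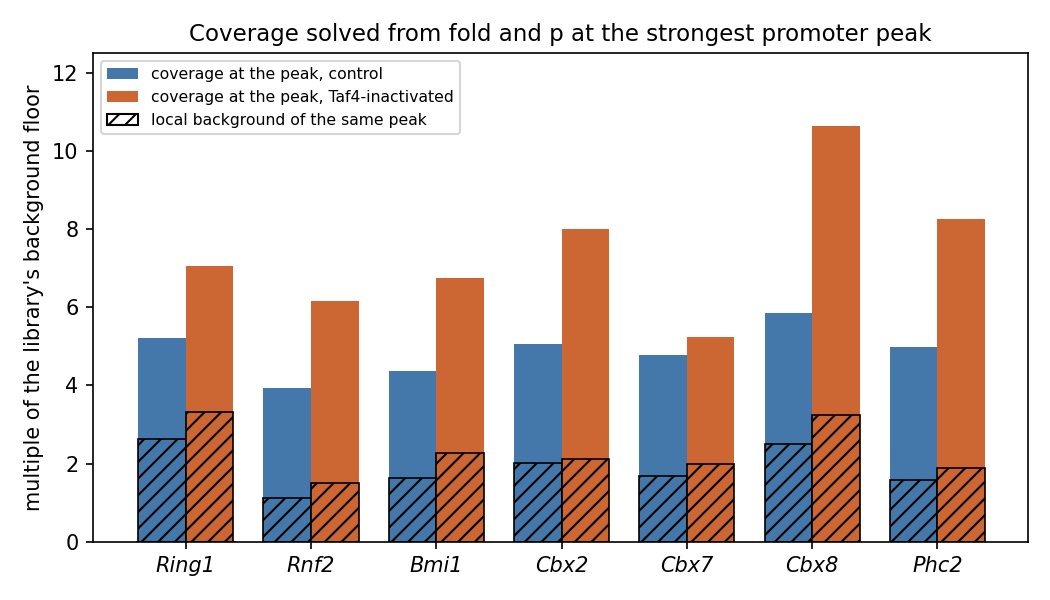
Coverage at the strongest promoter peak (filled bars) and local background of the same peak (hatched bars), each as a multiple of the background floor of its library (y axis, linear from 0), for the 7 genes (x axis) in 1 control library (blue) and 1 Taf4-inactivated library (orange). Every gene has a taller bar after inactivation, where the median protein-coding gene is 1.57 times as high on this scale. Cbx8 has the tallest bar in both, and Cbx7 has the smallest step, from 4.77 to 5.24.

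Bmi1 encodes a PCGF subunit that pairs with the RING ligases, and is known as a marker of reserve stem cells of the intestine. Its promoter peak, chr2:18597939-18599823 in control, had a fold of 2.62 (percentile 90.9). After inactivation it was chr2:18597966-18599569 with a fold of 2.86 (percentile 71.5), a difference of -19.4 points, just short of the 20-point mark. With peaks of a −log10 q of at least 2 alone, and when ranked among start site peaks of protein-coding genes, Bmi1 stood at -26.0 and -24.5 points and Ring1 at -5.29 and -8.59, so that Bmi1 and not Ring1 passed the mark beside Cbx7. The peak was the widest of the strongest promoter peaks in both lists, at 1885 and 1604 bp, and 12.9% of protein-coding genes had a lower rank difference.

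The chromobox genes Cbx2, Cbx7 and Cbx8 encode readers of the methyl mark that PRC2 leaves. Cbx7 had the largest rank difference of the 7. Its promoter peak was chr15:79762547-79763378 in control with a fold of 2.75 (percentile 93.2), and chr15:79762215-79763413 after inactivation with a fold of 2.52 (percentile 55.4), a difference of -37.8 points. Only 4.00% of protein-coding genes had a lower value. The log2 ratio of folds, centred on the median of the protein-coding genes, was -0.47, and 0.852% of genes were lower. By -log10 p the difference was -25.2 points. The peak was wider after inactivation, at 1199 bp against 832 bp, and contained the control peak whole.

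Cbx7 also had the lowest ratio of floor-scaled coverage of the 7, inactivated over control. Relative to the floor its coverage was 1.10 times as high after inactivation as in control. The median protein-coding gene was 1.57 times as high, with quartiles of 1.32 and 1.77. This placed Cbx7 at percentile 10.02 of those genes. The ratio was 1.35 for Ring1, between 1.54 and 1.66 for Rnf2, Bmi1, Cbx2 and Phc2, and 1.82 for Cbx8. A ratio below 1 was found at 4.41% of the genes and at none of the 7, a count near that share. The ratio also depends on the scaling to the floor, which was not checked. In solved reads before that scaling, coverage went from 57.9 to 38.5 at Cbx7 and from 71.0 to 78.1 at Cbx8.

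Cbx2 and Cbx8 lie next to each other on chromosome 11 and are transcribed towards each other. The Cbx2 promoter peak, chr11:118884071-118885034, had a fold of 2.44 in control (percentile 86.6) and, at chr11:118884071-118885048, a fold of 3.60 after inactivation (percentile 88.7), a difference of 2.12 points. The Cbx8 promoter peak, chr11:118901951-118903351, had a fold of 2.30 in control (percentile 80.1) and, at chr11:118901928-118902989, a fold of 3.18 after inactivation (percentile 80.9), a difference of 0.79 points. These lay at percentiles 74.5 and 70.0 of the rank differences of all protein-coding genes, inside their quartiles. Cbx2 and Cbx8 had the highest centred log2 ratios of the 7, at 0.21 and 0.12. Cbx8 had a high local background like that of Ring1, 2.49 and 3.25 times the floor.

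Phc2 encodes a polyhomeotic subunit, which links PRC1 complexes to each other through its SAM domain. It is the longest of the 7 genes, at 98144 bp, and has 5 groups of start sites. The strongest peak lay at the first of them, chr4:128331642-128332462 in control with a fold of 3.03 (percentile 96.4) and chr4:128331677-128332481 after inactivation with a fold of 4.14 (percentile 94.8), a difference of -1.55 points. The last group, with 7 start sites inside the gene, had a peak almost as strong, chr4:128404726-128405300 in control (percentile 92.6) and chr4:128404449-128405476 after inactivation (percentile 91.2). Between them, the peak chr4:128365551-128366550 at the start of Phc2-001 and Phc2-003 was called in control only (percentile 17.2). A weak wide peak at the start of Phc2-006, chr4:128387050-128389562 in control (percentile 5.87), was met after inactivation by a promoter peak at chr4:128386460-128387559 (percentile 4.33) and a distal one at chr4:128388617-128389583 (percentile 5.31). The first and last groups were the strong ones in both lists.

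The CpG content of the peaks followed the same division. At the strong first and last Phc2 start sites the control peaks held 9.87 and 15.5 CpG per 100 bp, and at the 2 weak inner ones 1.60 and 2.71. Over all promoter peaks of the 7 genes with a partner the median was 10.97 CpG per 100 bp in control and 10.9 after inactivation.

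**Figure D3:**
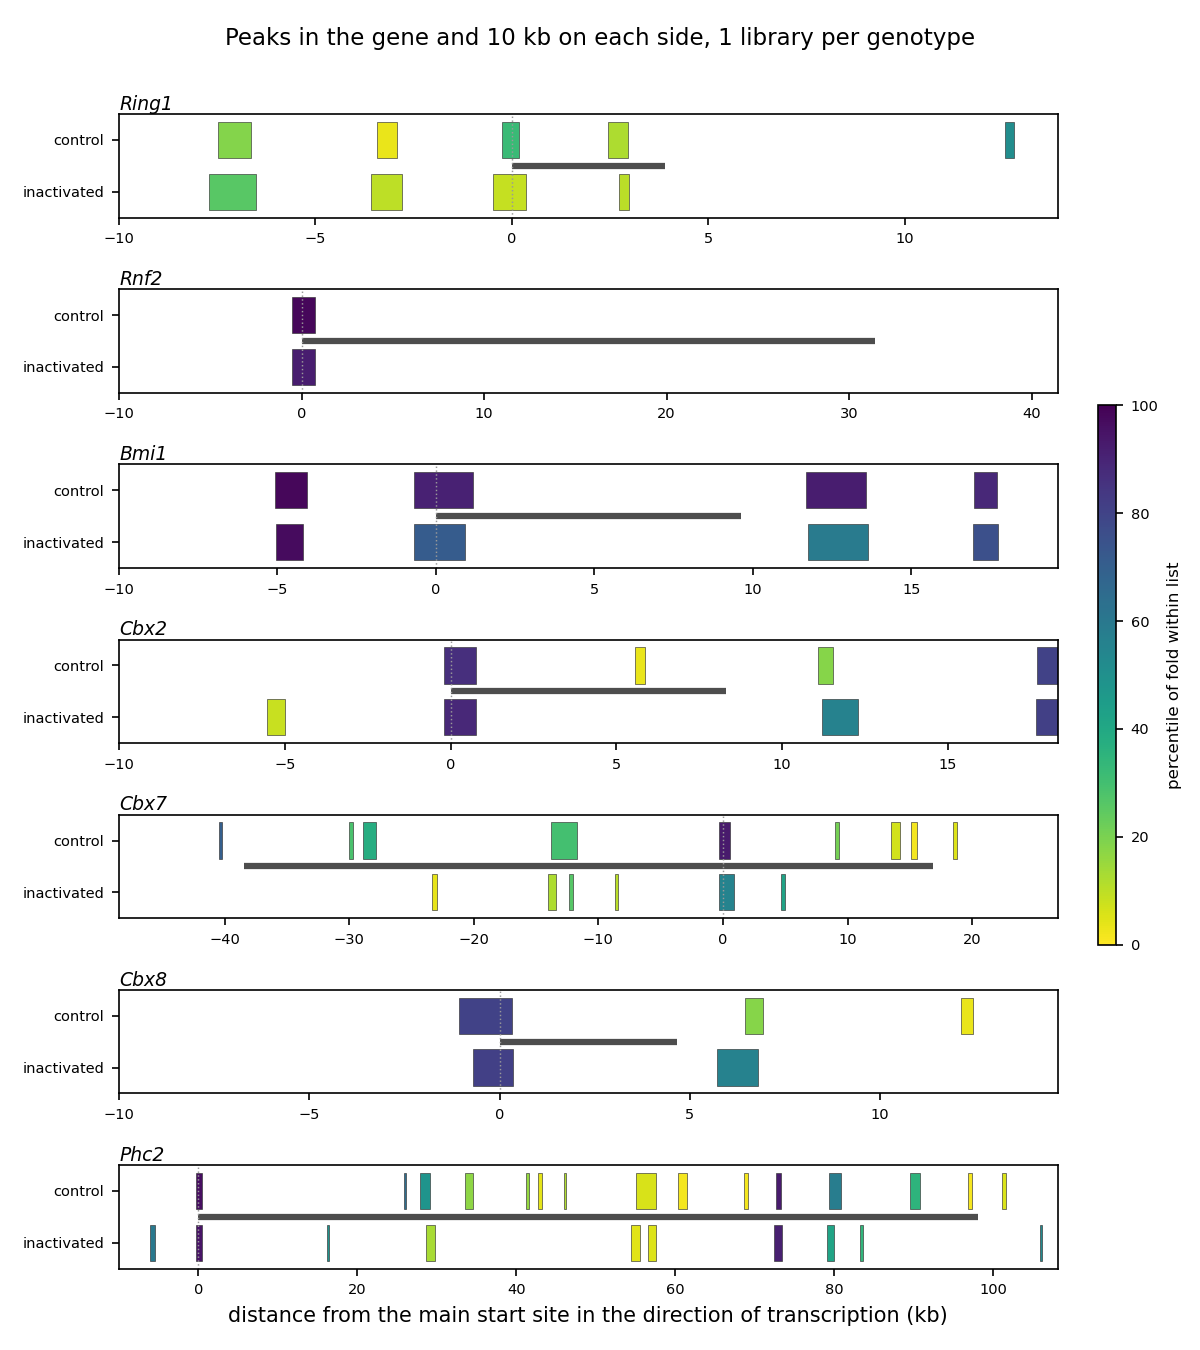
Peaks in each of the 7 genes and the 10 kb on each side, by distance in kb from the main start site in the direction of transcription (x axis), with control peaks above and Taf4-inactivated peaks below the gene body (grey bar), 1 library each, coloured by percentile of fold within the list (yellow low, dark blue high). Rnf2 has its promoter peak alone, Bmi1 has 4 peaks that recur in both lists, and Cbx7 and Phc2 have many weak peaks that occur in 1 list.

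Distal peaks were counted once where windows overlapped, and promoter peaks of any of the 7 genes were left out. In control 18 of 28 distal peaks had no partner, that is no overlap of at least 1 bp with a peak of the other list, which is 64.3% (exact Clopper-Pearson 95% interval 44.1 to 81.4%). Over the distal peaks of all protein-coding genes the share was 55.4%. After inactivation 8 of 20 had no partner, 40.0% (19.1 to 63.9%), where the share over all genes was 42.4%. Both intervals contain the share over all genes, and they cover counting error only. With peaks of a −log10 q of at least 2 alone, 22.2% of 9 control peaks and 40.0% of 15 Taf4-inactivated peaks had no partner, so that the order of the lists turned in both counts and shares. When an overlap of 50% of both peaks was asked for, 75% of the Taf4-inactivated ones had none. The distal peaks without a partner were weak in control, with a median percentile of 9.37 against 39.0 for those with one. After inactivation the order was the reverse, 38.4 without and 26.1 with a partner. Peaks with a partner were richer in CpG, with a median of 6.72 per 100 bp in control against 1.60 without, and of 4.55 against 1.36 after inactivation. Among the control peaks with a partner were those at the start sites of H2-Ke6, Rxrb, Commd3 and Gm13334, which held from 8.45 to 11.3. Without a partner there was one at A3galt2, with 2.28. The contrast is thus in part one of promoters of neighbouring genes against other peaks.

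The members differed in how many distal peaks they had and how many recurred. Bmi1 had 3 in each list, all with a partner, and its window was the most densely covered of the 7, at 18.6% of bases in control and 17.4% after inactivation, above 97.9% and 98.9% of protein-coding genes. Ring1 had 4 in control, of which 1 had no partner, and 3 after inactivation, all with one. Cbx7 had 8 in control, of which 7 had no partner, and 5 after inactivation, of which 3 had none. Phc2 had 11 in control, of which 9 had no partner, and 7 after inactivation, of which 4 had none. Peaks covered 8.57% of the Cbx7 window in control and 4.02% after inactivation, and 10.7% and 6.23% of the Phc2 window. Coverage was higher after inactivation in the windows of Ring1 (10.5% and 12.9%) and Cbx2 (8.40% and 11.5%), and near equal for Cbx8 (8.84% and 8.69%). The median protein-coding gene had 4.94% in control and 3.67% after inactivation, a shift in the direction of the difference in depth, whose part in these values was not tested.

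There were 10 distal pairs in which each peak overlapped the other best. Of these 2 ranked lower after inactivation by 20 points or more, where 19.9% of the distal pairs of all protein-coding genes did, and 1 ranked higher by that much, where 16.7% did. The median difference was -7.52 points, and over the 23005 pairs of all genes it was -1.44 points, with quartiles of -15.3 and 11 points. The strongest distal peak of Bmi1 lay upstream, at the start of the neighbouring gene Commd3, chr2:18593566-18594570 in control (percentile 98.1) and chr2:18593600-18594447 after inactivation (percentile 97.0). It outranked the Bmi1 promoter itself in both lists. A second lay downstream of Bmi1 at no annotated start site, chr2:18610316-18612215 in control (percentile 92.1) and chr2:18610393-18612291 after inactivation (percentile 58.7), a difference of -33.4 points. It was 1900 bp wide in control with 8.63 CpG per 100 bp, between the medians of the distal and the promoter peaks of the 7 genes. The third, at the start of the predicted gene Gm13334, ranked 88.7 in control and 75.5 after inactivation. Thus the promoter and both downstream peaks of Bmi1 had rank differences of -19.4, -33.4 and -13.3 points, while the peak at Commd3 differed by -1.14 points.

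The other pair that ranked lower by over 20 points lay in an intron of Phc2, chr4:128359856-128361149 in control (percentile 48.1) and chr4:128360661-128361815 after inactivation (percentile 13.1). Only 489 bp were shared. The strongest distal peak of Phc2 was in control an intronic one at chr4:128357899-128358104, without a partner (percentile 64.5). After inactivation it was chr4:128325868-128326498, centred 5799 bp upstream of the first start site and likewise without a partner (percentile 59.4). A peak beyond the 3′ end of Phc2, chr4:128437923-128438227, was also called after inactivation only (percentile 53.0), inside the neighbouring gene A3galt2.

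The pair that ranked higher lay between the ends of Cbx2 and Cbx8, at chr11:118895362-118895821 in control (percentile 18.1) and chr11:118895483-118896564 after inactivation (percentile 55.9), a difference of 37.8 points. Its width was 460 bp in control and 1082 bp after inactivation, with 339 bp in common. Both genes have this peak in their windows, and it lies at no annotated start site. It was the strongest distal peak of Cbx8 in both lists. For Cbx2 the strongest was the Cbx8 promoter, which reaches within 10 kb of the end of Cbx2.

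At Ring1 the distal peaks with a partner were weak, and 2 of the 3 in each list lay at start sites of neighbours, at H2-Ke6 and at Rxrb and Slc39a7. The latter was the strongest after inactivation (percentile 25.9; 18.4 in control). The strongest distal peak in control, chr17:34148835-34149071 downstream of the gene, had no partner (percentile 51.5).

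At Cbx7 the strongest distal peak in control lay upstream of the outermost start site, and it had no partner. It ranked at percentile 70.2 with a fold of 2.18. It is shown because it is the highest ranked peak of the 7 genes called in 1 list only.
Peak upstream of Cbx7 in the control list, chr15:79803245-79803488, plus strand: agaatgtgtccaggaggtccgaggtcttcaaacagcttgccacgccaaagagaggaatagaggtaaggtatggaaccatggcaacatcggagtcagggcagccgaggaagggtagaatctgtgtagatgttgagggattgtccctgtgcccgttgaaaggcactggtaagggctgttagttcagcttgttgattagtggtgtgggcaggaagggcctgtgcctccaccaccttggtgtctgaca
It spans 244 bp, is centred 1817 bp from the start site of Cbx7-005 and Cbx7-006, the nearest one, and holds 53.3% GC and 2.05 CpG per 100 bp, well below the 64.4% and 8.05 of the Cbx7 promoter peak. The outermost start sites themselves had no peak in either list. The strongest distal peak of Cbx7 after inactivation was intronic, chr15:79758119-79758426, without a partner (percentile 42.1).

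Other subunits and partners of PRC1 were looked at in the same way. Of 24 genes, 23 had a promoter peak in both lists and Fbrs had none in either. Their median rank difference was -6.49 points, with 18 below 0 and 5 above. The strongest peak was taken in each list separately. For Kdm2b, Bcor, Bcorl1 and Scmh1 these peaks did not overlap, so the difference there compares different places in the gene. Scml2, a sex comb protein gene, ranked 88.6 in control and 48.8 after inactivation, and was the only 1 of the 23 that ranked lower by over 20 points, where 12.3% of all protein-coding genes did. The next lowest was the chromobox gene Cbx6, from 19.2 to 2.83, at -16.4 points. The median control percentile of the list was 90.7, which leaves no room for a rise of 20 points at such a rank. Pcgf2, which encodes MEL18, a paralogue of the Bmi1 product, ranked 2.60 in control and 39.6 after inactivation. It was the only one of the 23 that ranked higher by over 20 points, where 7.84% of protein-coding genes ranked higher by 20 or more. Its centred log2 ratio of folds was 0.09, at percentile 66.4 of protein-coding genes, and its peak was 1867 bp wide in control and 417 bp after inactivation. The next highest was L3mbtl2, at 4.90 points. The 11 PRC2 genes all had a promoter peak in both lists, with a median difference of -3.25 points. None was lower or higher by 20 points, where 12.3% and 7.84% of protein-coding genes were. Their median percentiles were 94.8 in control and 94.0 after inactivation, which leaves no room for a rise of 20 points. Their median centred log2 ratio of folds was 0.02. Mtf2, at 5.22 points, had a centred log2 ratio of 0.63, at percentile 99.6 of protein-coding genes. Cdkn2a and Cdkn2b, known targets of Polycomb silencing, had promoters at percentiles 93.2 and 98.8 in control and 83.7 and 96.4 after inactivation.

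**Figure D4:**
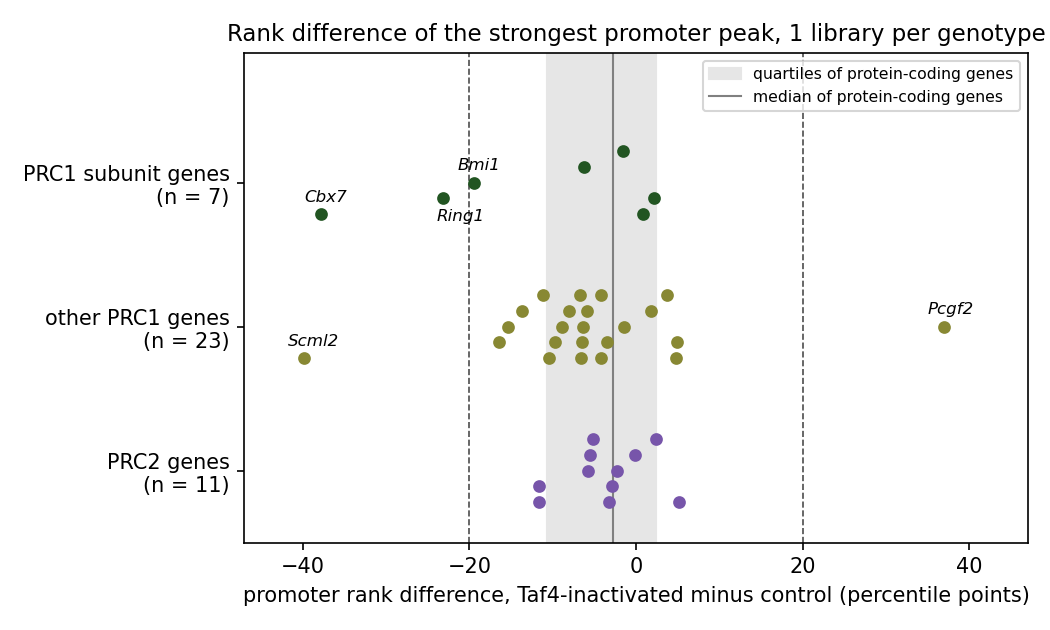
Promoter rank difference, Taf4-inactivated minus control, in percentile points (x axis) for the 7 PRC1 subunit genes, 23 other PRC1 genes and 11 PRC2 genes (y axis), each point 1 gene from 1 library per genotype, over the quartiles (grey band) and median (grey line) of the protein-coding genes. Dashed lines mark 20 points in each direction. Cbx7, Ring1 and Scml2 lie beyond the lower line, Pcgf2 beyond the upper one, and no PRC2 gene beyond either.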

How the data were processed

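Open chromatin was measured by ATAC-seq in enteroids of either genotype, and 1 deposited list of peaks per genotype was used, grouped by the label. The authors mapped reads to mm9 with Bowtie 1.0.0, keeping unique alignments, after base calling with bcl2fastq 2.17.1.14, and called broad peaks per library with MACS2 2.1.1 without a model. How duplicate and mitochondrial reads were treated is not given in the sources used here. The score that the authors deposited is 10 times the −log10 q, truncated. Fold, as deposited, is a ratio to the background of the same library. The deposited −log10 p and −log10 q are averages over a peak.

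Starts were made 1-based. All peaks lay within the NCBIM37 (mm9) chromosomes, and start sites, exons and sequences came from that genome with its GENCODE M1 annotation. Start sites within 1 kb of each other were grouped. A distal peak was placed by its midpoint, and a share over all genes counted each peak that was distal for at least 1 protein-coding gene. Ranks are percentiles of fold within a list. Local background and coverage were solved from fold, taken as (coverage + 1)/(background + 1), and the Poisson p of each peak. The solution was run on 3 simulated pairs of libraries, where the depth ratio was off by at most 0.00879%. Most simulated peaks were set at the background floor and coverage varied little within a peak, so this recovery was largely built in. It checks the arithmetic only. The depth, background and coverage solved from real peaks, whose fold and p are averages, were not checked. Python 3.11.15, numpy 2.4.6, pandas 2.3.3, scipy 1.17.1 and matplotlib 3.10.9 were used. Depth is known only as a ratio. With 1 library per genotype no p-value was computed.

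The 7 genes, the other gene lists, the motifs and the rules were chosen with earlier results of these data known. Besides the 24 other PRC1 genes given, 1 more was left out and is not reported here. Named among other PRC1 genes were those past 20 points and the 2 extremes in each direction, and among distal peaks the strongest of each gene per list and those in 1 list at or above percentile 50. Alternatives changed the ranking value, the reference set, the peak taken, the start site distance, the q threshold, the transcripts, the flank and the overlap. Ranking by solved coverage was added after the data had been seen.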

Additional observations from a re-analysis of the deposited data

How the results depend on the processing

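No paired analysis was possible because each genotype had 1 library, which also means that none could be left out. Of 128 values recomputed under 14 alternatives, 89 stayed within set limits. For rank differences these were the same direction and a move of less than 5 percentile points. Shares without a partner had to stay inside their 95% interval, and counts and covered shares within 1.5 times. The 89 include values that repeat the main one exactly, because the alternative took the same peaks. The cause of the shifts past these limits was not tested unless the alternative itself removes or adds peaks.

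All 7 genes kept a promoter peak in both lists under every alternative that bore on it. The median promoter rank difference stayed below 0 except when peaks were ranked by width, where it was 3.54 points. By width 0 genes ranked lower by 20 points or more and 2 ranked higher, Ring1 by 35.7 and Cbx7 by 20.3 points, while Rnf2 was at 3.54, Phc2 at 3.15 and Cbx8 at -6.26. Ranked by -log10 p, 1 gene, Cbx7, was lower by 20 points or more, and by solved coverage, an alternative added after the data had been seen, 0 were, with Cbx7 at -15.1 points and Cbx2 at -1.97. Ranked among start site peaks of protein-coding genes alone, Phc2 stood at 0.77 points. The Cbx7 difference lay at or below -20 points in 7 of 9 alternatives, that of Ring1 in 4 of 9 and that of Bmi1 in 2 of 9. For Cbx7 and Ring1 these include exact repeats of the main values, -37.8 and -23.1 points, where the same peaks were taken and ranked alike. Apart from repeats, Ring1 passed only with start sites reaching 5 kb, at -21.7 points. Ring1 did not pass where the ranking value or reference set changed, at -18.7 by -log10 p and -5.80 by solved coverage. Cbx7 then passed at -25.2 points by -log10 p, -46.5 among start site peaks and -55.9 with a −log10 q of at least 2. Bmi1 stood at -24.5 points among start site peaks and -26.0 at that −log10 q, where Ring1 stood at -8.59 and -5.29.

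With only peaks of a −log10 q of at least 2, distal peaks numbered 9 in control and 15 after inactivation, against 28 and 20 with all peaks, and 22.2% and 40% had no partner, so both orders turned. Peaks then covered 5.89% of the windows in either list, against 9.37% and 7.003% with all peaks. With start sites reaching 5 kb there were 18 distal peaks in control and 13 after inactivation, and with a flank of 25 kb there were 43 and 32. When an overlap of 50% of both peaks was required, 82.1% in control and 75% after inactivation had no partner.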
